A study of Drosophila melanogaster with 28 samples.

Results

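The homeobox genes hth and en, the ecdysone-induced genes Eip75B and Eip74EF, the GATA cofactor gene ush and the bHLH genes trh and twi are 7 autosomal genes of Drosophila that encode transcription regulators. Their gene bodies, in the dm6 assembly, held 21 binding sites of MSL2, CLAMP or a CLAMP mutant, made of 37 peaks. These are 21 of the 1098 sites, and 37 of the 2013 peaks, found in the whole experiment when peaks overlapping by at least 1 bp were merged. The genes were chosen by these same peaks, from developmental and ecdysone regulators with at least 1 peak in the gene body. They are not all such genes, as ftz-f1, Eip93F, Hr3, Antp and sim also held sites. The number of sites in the 7 genes is therefore a description and carries no test.

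The template was genomic DNA purified from BG-3 cells, which are cultured fly neural cells of larval origin, and assembled into chromatin in vitro over 5 h. Proteins were then bound for 30 min, and crosslinked chromatin was partly digested with MNase and immunoprecipitated. The MSL2 antibody was applied to chromatin that had received MSL2 alone, MSL2 plus CLAMP, or MSL2 plus the CLAMP mutant (3 libraries each). The CLAMP antibody was applied to chromatin with CLAMP or the mutant, either alone or plus MSL2 (2 libraries for each of 4 groups). The FLAG antibody was applied where CLAMP or the mutant had been added on its own (2 libraries each). Lists are named below by the protein of interest first, so that MSL2 with CLAMP is the MSL2 antibody, and CLAMP with MSL2 the CLAMP antibody, on chromatin with both proteins. The labels do not say what the mutation is. Each antibody also had a negative control group with no added factor named in its labels. Purified DNA carries no histone marks or bound factors from the cells, so the data do not bear on whether a gene was active in BG-3 cells.

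Each group had 1 peak list, called by the authors on its merged libraries against the negative control of the same antibody, so there is no replicate error and no test between conditions. A peak had to exceed that control 10-fold and its surroundings 4-fold. The lists give positions and no heights. A site that is absent from a list missed at least 1 threshold, which is not a measured loss of binding. The list of CLAMP with MSL2 rested on 3875205 tags, the fewest, with 16 tags needed for a peak, and that of MSL2 alone on 26822838, the most, with 54 needed. Lists of one antibody share their negative control.

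MSL2 provides DNA binding to the dosage compensation complex, which raises transcription of the X chromosome in males. CLAMP, a protein with zinc fingers that recognise GA-rich DNA, binds all chromosomes and helps MSL2 to reach its sites on X. The 7 genes lie on autosomes, outside the chromosome that dosage compensation acts on. The homeobox protein Hth is a cofactor that carries Extradenticle into the nucleus and modifies the choice of target genes by Hox proteins. Engrailed marks the posterior compartment of each segment. Eip75B is a nuclear receptor and Eip74EF an ETS factor, both induced early in the response to the steroid hormone ecdysone. Ush is a zinc finger protein that binds GATA factors such as Pannier. Trh, a bHLH-PAS factor, specifies the tracheal system and salivary ducts, and Twist specifies the mesoderm.

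Sites were unevenly spread over the genes. Eip75B had 8 sites in a body of 114 kb (7.03 per 100 kb), and hth had 6 in 132 kb (4.55 per 100 kb). The gene twi had 3 in an annotated body of 63.0 kb (4.77 per 100 kb). Each of the other 4 genes had 1 site, in bodies of 4.21 kb for en, 60.7 kb for Eip74EF, 64.3 kb for ush and 26.1 kb for trh. Over all autosomal genes in the gene table, 2.57% had a site (385 of 14979). Among genes of at least 50 kb the share was 39.4% (95 of 241), and among those of at least 100 kb it was 54.0% (34 of 63). A site in a body the length of hth or Eip75B was thus common, while their counts stood at the top of the range. Eip75B had more sites than any other autosomal gene and hth had the second highest count. Numbered from the lower coordinate, sites 1, 4, 6 and 8 of Eip75B and 2, 5 and 6 of hth were called solely for CLAMP with MSL2. The ranking was not rerun without that list. Of the 49 other autosomal genes at least as long as Eip75B, 27 had a site and 0 had as many as 8. Of the 28 at least as long as hth, 16 had a site and 0 had as many as 6. As the 7 genes were chosen by these same peaks, the comparisons with other genes are descriptions and carry no test.

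**Figure D1:**
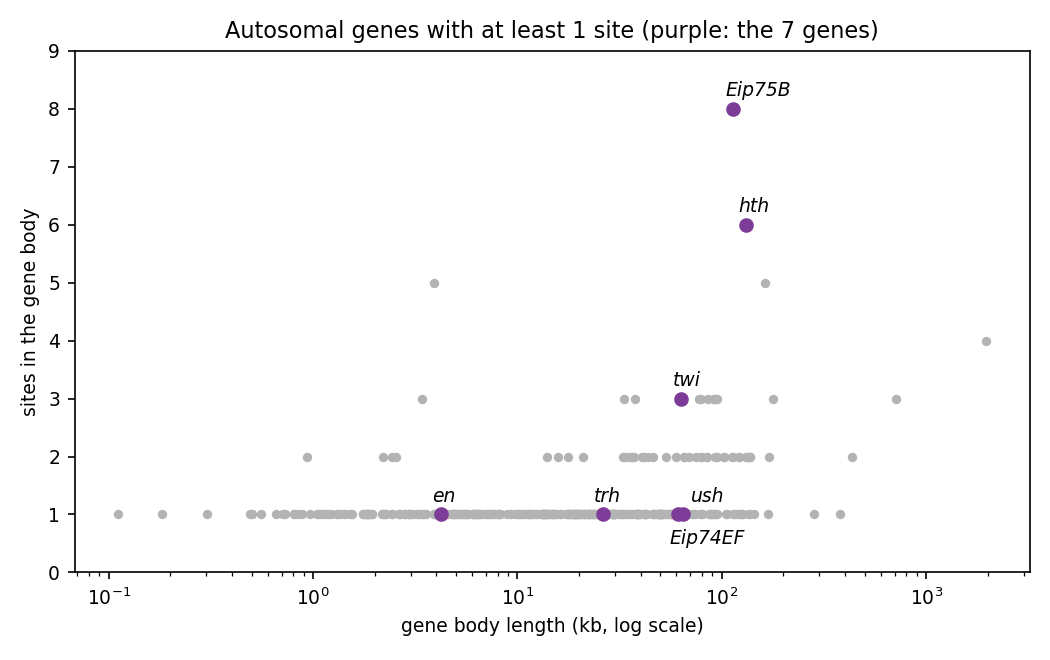
Number of sites in the gene body (vertical axis) against gene body length in kb (horizontal axis, log scale) for each autosomal gene with at least 1 site (grey), with the 7 genes in purple. Eip75B (8 sites) and hth (6 sites) lie above all other genes, and en, trh, ush and Eip74EF lie in the row of genes with 1 site.

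**Figure D2:**
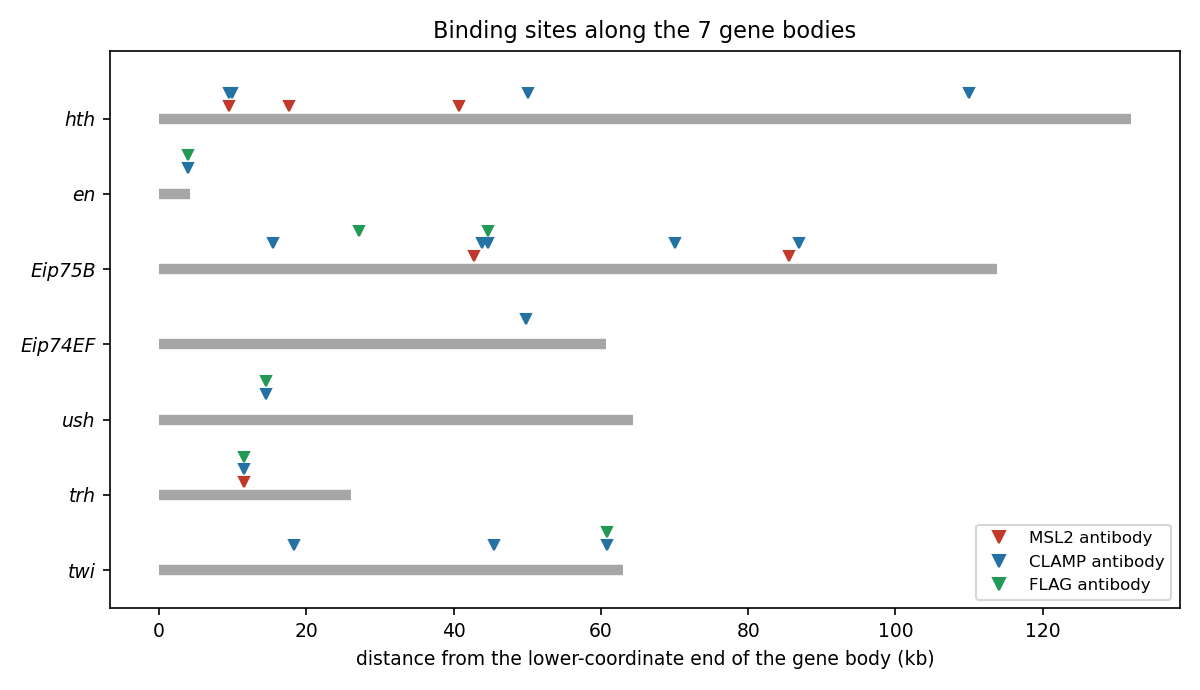
Position of each site (triangles) along the 7 gene bodies (grey bars), as distance in kb from the end with the lower coordinate. Colours and height above the bar give the antibody, in any mixture. The sites of hth and Eip75B are spread along the bodies, the en site lies at the upper end, and at trh all 3 antibodies mark the same place.

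Most of these sites were called for CLAMP when MSL2 was present, and none for CLAMP alone with the same antibody. The list of CLAMP alone held 74 peaks in all, and that of CLAMP with MSL2 held 429. Of the 16 sites called in the latter, 5 were also called by the FLAG antibody for CLAMP without MSL2. With the CLAMP antibody, 16 of the 21 sites (76.2%) were called for CLAMP with MSL2, and every gene had at least 1 of them. In that list lay 34.3% of all 440 autosomal sites in gene bodies. For CLAMP alone the CLAMP antibody gave 0 of the 21 sites (3 counts of the total, the limit a count of 0 sets, would be 14.3%), against 3.86% of the autosomal sites. The mutant gave 1 site alone, in ush (4.76%, against 2.73%), and 1 with MSL2, in twi (4.76%, against 5.23%). The members' share was thus above that of the autosomal sites for CLAMP with MSL2, and within a few points of it in the other lists of this antibody. The genes were chosen by peaks of these same lists, and Eip74EF had peaks in the list of CLAMP with MSL2 alone. No difference is therefore read from these shares. The list of CLAMP with MSL2 also had the fewest tags and the lowest tag threshold, but per 10000000 tags its threshold was the highest of the 9 lists (41.3 tags, against 29.2 for CLAMP alone and 20.1 for MSL2 alone). The part of depth in these calls was not tested. Without it, 11 of the 21 sites were left, in 6 of the genes.

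With the MSL2 antibody, 1 site was called for MSL2 alone, the trh site (4.76% of the 21, against 11.1% of the autosomal sites). With CLAMP there were 6, of which 3 lay in hth, 2 in Eip75B and 1 in trh (28.6%, against 48.0%). With the mutant there were 2, in hth and trh (9.52%, against 26.1%). In all 3 MSL2 lists the members' share was below that of the autosomal sites. The genes were chosen by the union of all lists, so no difference is read from these shares. The genes en, Eip74EF, ush and twi had no MSL2 site in any of the 3 lists.

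With the FLAG antibody, made without MSL2, CLAMP gave 6 of the 21 sites (28.6%, against 26.8%): 2 in Eip75B and 1 each in en, ush, trh and twi. The mutant gave 4 (19.0%, against 16.6%), 1 each in en, Eip75B, ush and trh, and all 4 were also FLAG CLAMP sites. Both shares were close to those of the autosomal sites. The FLAG CLAMP sites that the FLAG mutant list lacked were site 5 of Eip75B and site 3 of twi. No hth site and no Eip74EF site was called with the FLAG antibody.

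**Figure D3:**
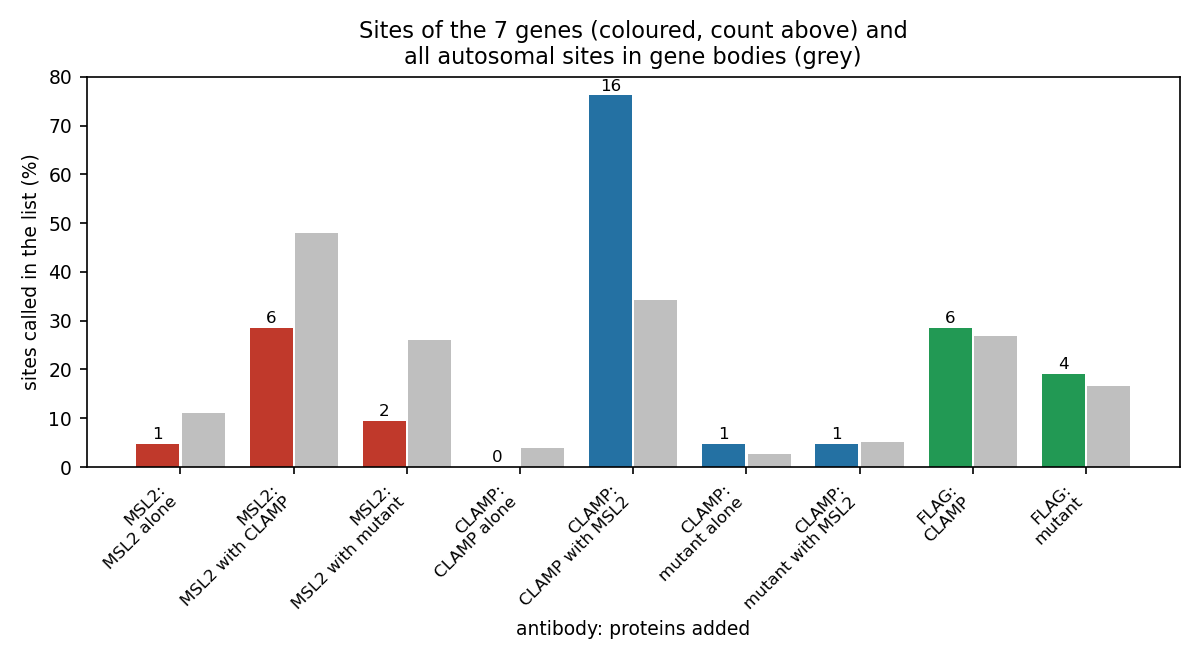
Percent of the 21 member sites called in each of the 9 peak lists (coloured by antibody, with the count above) beside the percent of all 440 autosomal sites in gene bodies called in the same list (grey). The member bar is above the grey one for CLAMP with MSL2 (76.2% against 34.3%) and below it in the 3 lists of the MSL2 antibody. The genes were chosen by peaks of these same lists, so the bars carry no test.

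Counted by mixture, 15 of the 21 sites were called solely in lists with MSL2 added (71.4%, against 70.9% of the autosomal sites). A single site was called solely in lists without MSL2, site 2 of Eip75B (4.76%, against 14.8%), and 5 sites in both kinds of list (23.8%, against 14.3%). The first share was near that of the autosomal sites. Sites called in exactly 1 list numbered 13 (61.9%, against 57.5% of the autosomal sites). Of these, 10 were in the list of CLAMP with MSL2 (47.6% of the 21, against 18.2%) and 3 in that of MSL2 with CLAMP. No difference is read from these shares either, as the genes were chosen by the same lists. Another 4 sites were called in 2 lists, 2 in 3 lists, 1 in 4 lists (ush) and 1 in 6 lists (trh).

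**Figure D4:**
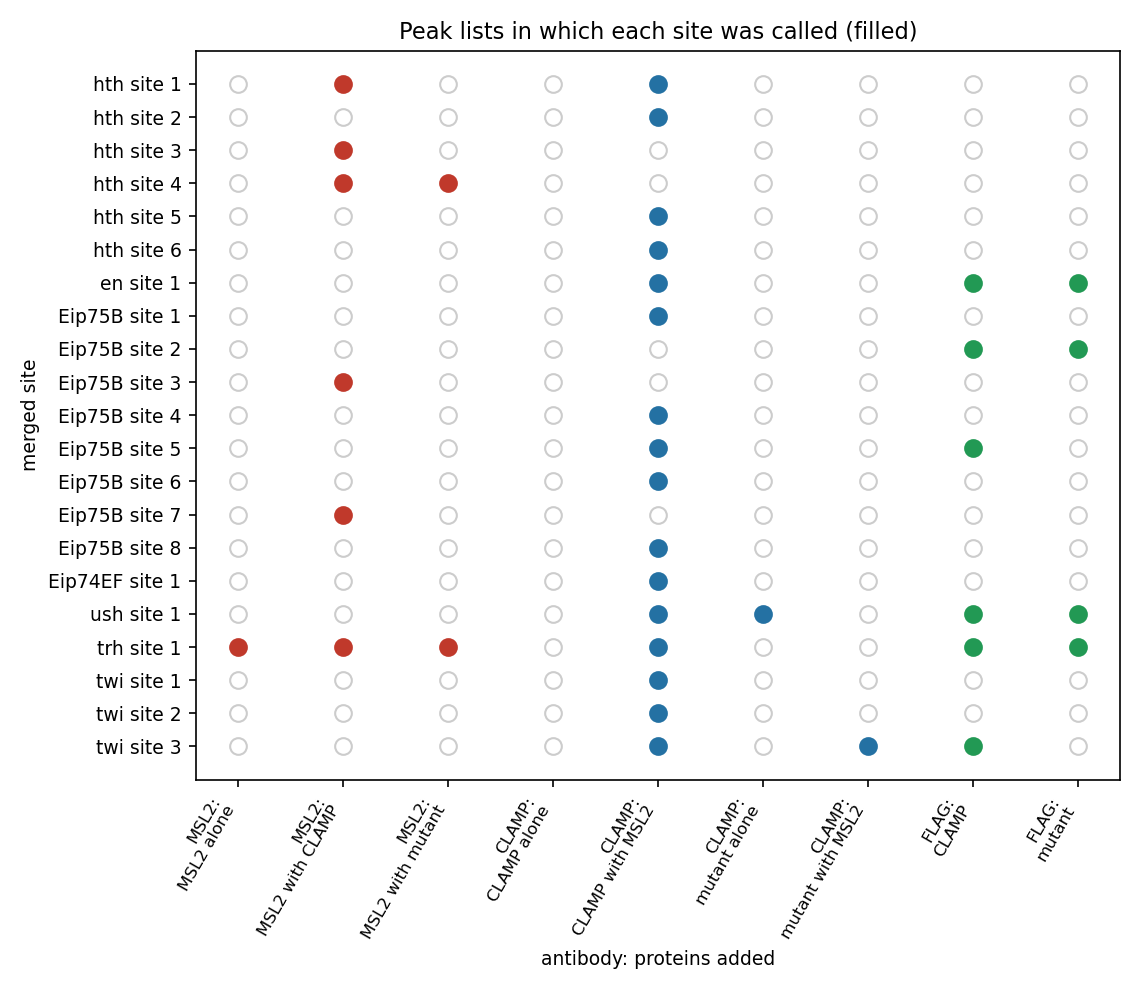
The 21 sites (rows, numbered within each gene from the lower coordinate) and the 9 peak lists (columns, antibody and proteins added), with a filled circle where the site was called. The column of CLAMP with MSL2 is filled in 16 rows and that of CLAMP alone in none, and trh has the fullest row, with 6 lists.

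The homeobox gene hth (Dmel_CG17117, 3R 10507561 to 10639568) had sites for both proteins, 1 of them shared. All of its 8 peaks came from 3 lists, MSL2 with CLAMP, MSL2 with the mutant and CLAMP with MSL2, and all 3 contained MSL2. Sites 1 and 2 lay close together, 9.50 and 9.96 kb from the lower end of the body and separated by 269 bp. Site 1 (10516953 to 10517171) was called with both antibodies when the 2 proteins were mixed. Site 2 (10517441 to 10517591) was called there with the CLAMP antibody only. Site 3 (10525201 to 10525351) was an MSL2 site with CLAMP present. Site 4 (10548232 to 10548384, 40.7 kb from the lower end) was an MSL2 site with CLAMP and also with the mutant, and was the sole site of hth called with the mutant. Sites 5 (10557541 to 10557691) and 6 (10617242 to 10617392, 110 kb from the lower end) were CLAMP sites with MSL2 present. None of the 6 overlapped the body of another gene.

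The other homeobox gene, en (Dmel_CG9015, 2R 11524006 to 11528210), had 1 site near an end of a short body. The site (11527880 to 11528142) had its centre 0.199 kb inside the upper end of the gene, the shortest distance to a gene end among the 21 sites. The gene table gives no strand, so whether that end is the start of transcription was not resolved. The site was called for CLAMP with MSL2 and in both FLAG lists, and the 3 peaks were staggered. The centre for FLAG CLAMP lay 51 bp below that for CLAMP with MSL2, and the centre for the FLAG mutant a further 61 bp below. The next site on the chromosome was 54.0 kb away, outside the gene. The paralog and neighbour inv had no site.

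The ecdysone-induced receptor gene Eip75B (Dmel_CG8127, 3L 17950953 to 18064696) had sites from 4 lists, and in it MSL2 and CLAMP sites lay near each other without overlapping. Site 2 (17978065 to 17978222) was found with FLAG CLAMP and the FLAG mutant and in no other list. Site 5 (17995553 to 17995704) was found with FLAG CLAMP and with CLAMP and MSL2 by the CLAMP antibody, with peak centres 1 bp apart. Sites 3, 4 and 5 formed a cluster 42.8 to 44.7 kb from the lower end. Its first site (17993726 to 17993876) was an MSL2 site with CLAMP present, 895 bp from site 4 (17994772 to 17994922), a CLAMP site of the same mixture. Site 7 (18036406 to 18036556), again MSL2 with CLAMP, lay 1269 bp from site 8 (18037826 to 18037976), again CLAMP with MSL2. Site 8 also overlapped the noncoding RNA gene lncRNA:CR45922. Sites 1 (17966364 to 17966514) and 6 (18020990 to 18021140) were CLAMP sites with MSL2 present, 11.6 and 15.3 kb from their nearest sites.

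When MSL2 and CLAMP were mixed, then, 4 of the 6 member sites of the MSL2 antibody had no CLAMP antibody peak on them, as had 84.8% of all such autosomal sites in gene bodies (179 of 211). In Eip75B both had a CLAMP antibody site within 2 kb, and in hth the nearest were 7.61 kb from site 3 and 9.16 kb from site 4. Among these 179 sites, 5 (2.79%) had a CLAMP antibody site within 2 kb, and the 2 in Eip75B are among these 5. Both antibodies marked the same site in that mixture at 2 of the 21 sites, hth site 1 and trh (9.52%, against 7.27% of the autosomal sites). Another site of any list lay within 2 kb of 7 of the 21 sites, 5 in Eip75B and 2 in hth (33.3%, against 9.32%). As a gene with many sites has more chances of close ones, this share follows in part from the choice of genes.

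The other ecdysone-induced gene, the ETS factor gene Eip74EF (Dmel_CG32180, 3L 17558672 to 17619325), had 1 site in 60.7 kb. It lay 10.8 kb inside the upper end (17608442 to 17608592) and was called solely for CLAMP with MSL2. The nearest other site was 329 kb away and lay between Eip74EF and Eip75B on 3L (17937510 to 17937660), 13.3 kb outside the body of Eip75B.

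The GATA cofactor gene ush (Dmel_CG2762, 2L 476220 to 540560) had 1 site that was found with 4 lists, all of CLAMP or the mutant. Merged from staggered peaks of a fixed size of 150 bp, it measured 296 bp (490552 to 490847). It lay 14.5 kb from the lower end, over the noncoding RNA gene lncRNA:CR46258. It was the sole member site called by the CLAMP antibody for the mutant alone, and it was absent for CLAMP alone and for the mutant with MSL2 with the same antibody. The peak for CLAMP with MSL2 stood apart from the others. Its centre was 85 bp below that for the mutant alone, 122 bp below that for FLAG CLAMP and 145 bp below that for the FLAG mutant. Over all arms, the centres for CLAMP with MSL2 and FLAG CLAMP differed by a median of 22 bp (quartiles 4.75 and 59, 156 sites), so the ush distance lay above the upper quartile.

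The bHLH-PAS gene trh (Dmel_CG42865, 3L 366524 to 392633) held the one site of the 21 that was found with all 3 antibodies and in all 3 MSL2 lists. The site (378058 to 378273) lay near the middle of the body, 11.6 kb from the lower and 14.5 kb from the upper end. It was absent from the lists of CLAMP alone, the mutant alone and the mutant with MSL2, all made with the CLAMP antibody. In the order of lines in the files its peak stood 1st of 132 for MSL2 alone, 4th of 466 with CLAMP, 1st of 226 with the mutant and 2nd of 429 for CLAMP with MSL2. It stood 11th of 354 for FLAG CLAMP and 11th of 224 for the FLAG mutant. The headers do not say what that order ranks, so these places are no measure of height.

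The 6 peaks of trh fell at 2 positions within the site. The peaks for MSL2 alone, FLAG CLAMP and the FLAG mutant had identical coordinates (378123 to 378273), and the peak for CLAMP with MSL2 lay 4 bp below. The MSL2 peaks made with CLAMP and with the mutant had identical coordinates too (378058 to 378208), 65 bp below those of MSL2 alone. With both proteins present the centres of the 2 antibodies were thus 61 bp apart. At hth site 1 they were 68 bp apart in the same mixture, with MSL2 on the upper side where at trh it was on the lower side. Over all sites on the arms with both peaks, the centres of MSL2 alone and MSL2 with CLAMP differed by a median of 13.5 bp (quartiles 2 and 37.5, 122 sites), and 14 of these (11.5%) differed by 65 bp or more. Those of MSL2 and CLAMP in the shared mixture differed by a median of 20 bp (quartiles 3 and 60.5, 111 sites). The distance of 65 bp was taken from trh after it was seen, and without replicate lists the error of a peak's centre is not known. At hth site 4, the centres of MSL2 with CLAMP and with the mutant differed by 2 bp.

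**Figure D5:**
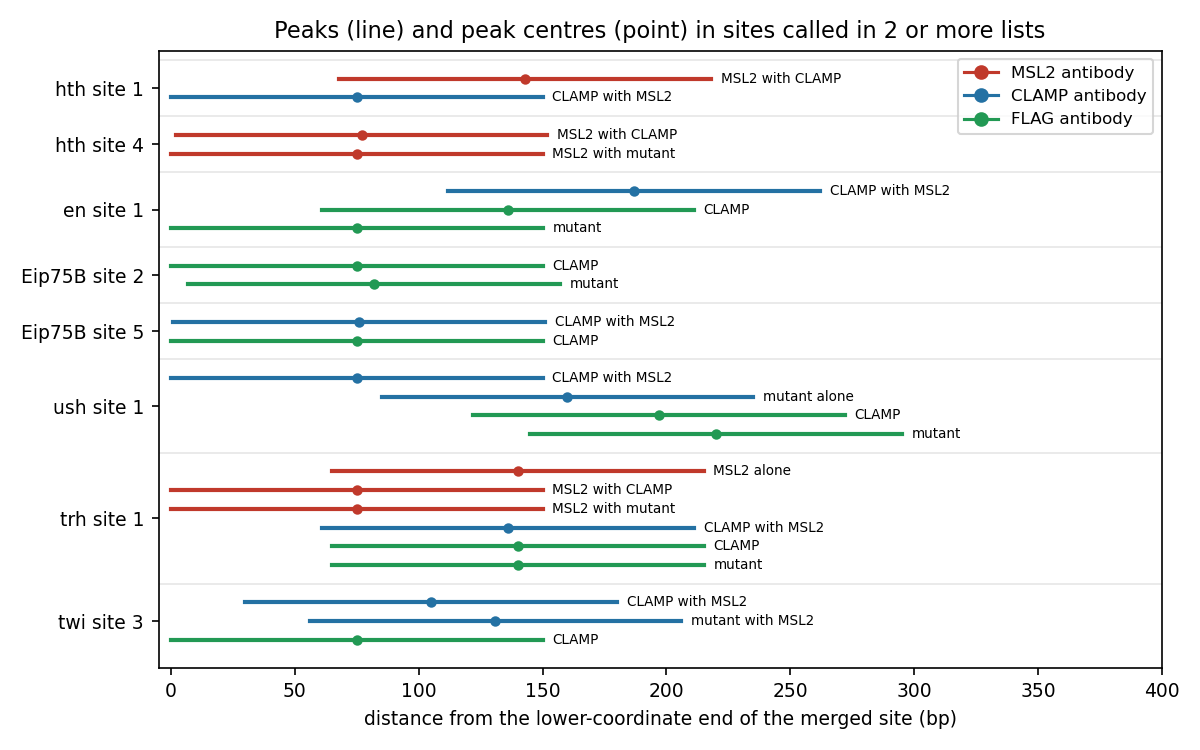
The peaks of each list (lines, with the centre as a point) in the 8 member sites called in at least 2 lists, as distance in bp from the lower end of the merged site, coloured by antibody and labelled with the proteins added. At trh the MSL2 peaks with CLAMP and with the mutant lie 65 bp below the other MSL2 peak, and at ush the peak of CLAMP with MSL2 lies 85 to 145 bp below the others.

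The mesoderm gene twi (Dmel_CG2956, 2R 22985374 to 23048325) had 3 sites, all called for CLAMP with MSL2 and none with the MSL2 antibody. Its annotated body overlaps 4 other genes (CG42741, CG9896, CG9897 and asRNA:CR42742), and site 2 (23030815 to 23030965) also lay in CG42741. Site 1 (23003596 to 23003746) lay 18.3 kb from the lower end. Site 3 (23046178 to 23046384) was 2.04 kb inside the upper end and was called in 3 lists, FLAG CLAMP, CLAMP with MSL2 and the mutant with MSL2. It was the sole member site of the mutant with MSL2 by the CLAMP antibody. The centre for FLAG CLAMP lay 30 bp below that for CLAMP with MSL2, and the centre for the mutant with MSL2 lay 26 bp above it. The nearest site outside the gene was 11.1 kb beyond its end, the shortest such distance of the 7 genes. Extending the gene bodies by 2 kb on each side added 0 sites.

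Of 41 other genes listed as relatives of these regulators, 40 were in the gene table and 8 had a site, 14 sites in all. On the autosomes 6 of 36 had one, where 2.57% of all autosomal genes did, but the genes with sites were mostly long. Of the 6 autosomal relatives of at least 50 kb, 4 had a site, where 39.4% of all autosomal genes of that length did. Of the 30 shorter ones, 2 had a site, where 1.97% did (290 of 14738). These counts are too small to set the relatives apart from other genes. The lists were written with results for some of these genes known. Among 13 genes of the ecdysone cascade, 6 had sites, of which 4 were among the 10 autosomal ones. The others are on X, for which no share over all genes was computed. The nuclear receptor gene ftz-f1, which acts in the prepupa, had 1 (3L 18787955 to 18788165) found in 5 lists, MSL2 alone, MSL2 with CLAMP, CLAMP with MSL2 and both FLAG lists. The kinase gene Eip63E had 2, of which 1 (3L 3569346 to 3569509) was found with both FLAG lists and CLAMP with MSL2, the same lists as the en site. Eip93F had 2 sites, 1 for MSL2 with the mutant and 1 for FLAG CLAMP, and the nuclear receptor gene Hr3 had 2, 1 for FLAG CLAMP and 1 for MSL2 with CLAMP. On X, br, a zinc finger gene of the early ecdysone response, had 3 sites, all called for CLAMP with MSL2 and 1 of them also for FLAG CLAMP, and Hr4 had 1 for MSL2 with CLAMP. The receptor genes EcR and usp themselves had 0 sites, as had Eip78C, Hr38, Hr39, Hr78 and E23.

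Sites were also counted in the partners and relatives of the other regulators. Of 14 homeobox genes, Antp alone had any, 2 sites (3R 6988534 to 6988684 and 6991891 to 6992041) called for CLAMP with MSL2. The Hth partner gene exd and the remaining Hox genes had 0. None of the 5 GATA factor genes had a site, pnr included, whose product Ush binds. All 5 are under 50 kb, a length at which 1.97% of autosomal genes had a site, so no contrast with ush is read. Of 8 bHLH and mesoderm genes found in the table, sim, a bHLH-PAS gene of the midline, had 1 for FLAG CLAMP (3R 13074637 to 13074787). The Trh partner gene tgo and the mesoderm genes sna, Mef2 and tin, all under 50 kb too, had 0.

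Genes with a like pattern of lists were sought by the Jaccard index over the 9 lists, the number of lists that called both genes divided by the number that called either. For trh, the neuronal homeobox gene pros (79.1 kb, 3 sites) and ASPP (33.3 kb, 3 sites) had the same 6 lists (index 1), and sif (91.7 kb) followed at 0.833. For hth, 4 genes had the same 3 lists, among them the splicing regulator gene mbl (163 kb, 5 sites), olf413 and the GABA receptor gene Rdl. For Eip75B, 6 genes had the same 4 lists, and the longest were bru3 (281 kb), the translational repressor gene pum (171 kb) and fru (131 kb), a regulator of male behaviour. The 3 lists of en were shared by 17 genes, the longest of them Glut4EF, CG46467 and Eip63E. The lists of ush were matched in full by lncRNA:CR46258 alone, which shares its site, and at 0.8 by the Wnt receptor gene fz2 and by cmpy. No gene had the lists of twi, and ckd came closest at 0.667, ahead of Glut4EF and CG46467 at 0.5. Genes with more sites can collect more lists, and lists differ in length, so a like pattern says only that the same lists held a site.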

How the data were processed

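Processing notes of the submitters name Bowtie2 2.2.9, SAMtools 1.9, HOMER 4.9 and the build dm6. Per the file headers, the authors called peaks with HOMER findPeaks (factor style, peak size 150 bp, false discovery rate 0.001) on the merged tags of each group. The deposited score column is 1 in every line and was not used. Starts were converted to 1-based coordinates. Peaks overlapping by at least 1 bp were merged into sites, and a site belonged to a gene whose body in the RefSeq gene table of dm6 (Release 6 plus ISO1 MT) it overlapped. Strand, exons and sequence are not in this table, so the planned exon classes and GA runs were not analysed here. Counts of member sites are set beside the same counts over the 440 autosomal sites in gene bodies, members included. The members and gene lists were chosen with earlier results of these data known. Named genes are the 7 members, listed relatives with a site, and for members in at least 3 lists the 3 autosomal genes with the highest Jaccard index, ties by length. Relatives with 0 sites were also named, after their counts were seen. One listed symbol matched no gene. Merging was tested on simulated data. Calculations used Python 3.11.15, numpy 2.4.6 and matplotlib 3.10.9.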

Additional observations from a re-analysis of the deposited data

How the results depend on the processing

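The counts of sites in the 7 genes, in each list and in pairs of lists moved by less than 1.5 times when a site's centre had to lie in the gene body, when bodies were extended by 2 kb on each side, and when peaks within 500 bp were merged, which joined hth sites 1 and 2 and left 20 sites. The 6 counts in pairs of lists that were also run with 50% reciprocal overlap were the same. Pairs of a CLAMP antibody list and a FLAG list were not run in that setting. For peaks of 150 bp, the centres of CLAMP with MSL2 and FLAG CLAMP lay 122 bp apart at ush. Those of CLAMP with MSL2 and the FLAG mutant lay 112 bp apart at en. Such pairs overlap by less than 50% of a peak. The other pairs at en lay closer, 51 and 61 bp apart. At ush the peaks of the mutant alone and of the FLAG lists lay 23 to 60 bp from each other. The peak of CLAMP with MSL2 at ush lay at least 85 bp from the others, so its place in that site rests on merging by 1 bp. Without the list of CLAMP with MSL2, a setting chosen after seeing the data, 11 of the 21 sites were left, and Eip74EF had none. The ranking of autosomal genes by sites was not rerun in that setting. A stricter score threshold was not run, since the score does not vary. No paired analysis was possible because each group has 1 merged list. The lists needed from 16 to 54 tags for a peak, so an absence is read against that list's own threshold. Peak heights and single libraries were not analysed here.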

Other observations

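Besides Eip75B and hth, the autosomal genes with at least 4 sites were mbl (5 sites in 163 kb), a splicing regulator of muscle and nerve, msl-2 (5 sites in 3.90 kb), which encodes one of the added proteins, and Myo81F (4 sites). All other autosomal genes with a site had 1 (322 genes), 2 (45 genes) or 3 (13 genes). Among those with 3 was Clamp, which encodes another added protein and has a body of 3.42 kb. The cause of the peaks in msl-2 and Clamp was not tested.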
